A study of Mus musculus with 30 samples.

Results

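*Pou6f1*, *Pou2f1*, *Pou2f2* and *Pou3f1* are 4 genes of the POU family of transcription factors, and they were followed here in single mouse embryos with and without DIS3 and in the chromatin of mouse embryonic stem cells (mESCs) that carried POU6F1. They were chosen by name, as POU genes other than *Pou5f1* (the Oct4 gene), and make up 4 of the 55487 genes that were counted. The embryos came from matings of *Dis3* het parents whose null allele lacks exons 3 to 5, so the mothers of all 3 genotypes, wild-type (WT), het and null, carried 1 null copy, and the hormone-stimulated matings and single-embryo genotyping were shared by all groups. E2.5 gave 6 WT, 2 het and 4 null embryos, and E2.75 gave 3 WT, 5 het and 3 null. The labels do not tie the embryos to litters, so p-values measure the spread between these embryos. The binding data were 4 peak lists of 2 anti-mCherry chromatin precipitations from mESCs derived from *Dis3* flox/flox blastocysts, 48 h after transfection with a POU6F1-mCherry plasmid under the CAG promoter. These cells held the fusion protein beyond their own POU6F1. Peaks of each replicate had been called against IgG in the same POU6F1-mCherry cells and against anti-mCherry in cells with mCherry alone, and the labels list 1 sample of either control.

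POU proteins bind DNA through 2 linked modules, a POU-specific domain and a POU homeodomain, and many of them recognize the octamer ATGCAAAT or AT-rich variants of it. OCT1, the product of *Pou2f1*, is made in most cell types and serves housekeeping and small nuclear RNA genes. OCT2, from *Pou2f2*, is best known in B lymphocytes and neurons, OCT6, from *Pou3f1*, in Schwann cells, keratinocytes and early neural tissue, and POU6F1, also called BRN5, in the nervous system. DIS3 is a ribonuclease of the RNA exosome, which degrades many nuclear and cytoplasmic RNAs. The study asked which transcripts DIS3 acts on in early embryos and where POU6F1 binds.

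The stretches of *Pou6f1* that the results turn on are shown first, and all are given on the minus strand of GRCm38, the strand of the gene (ENSMUSG00000009739, chr15:100575318-100599984). The first is the piece of its mRNA that the study tested as an RNA probe with DIS3, which lies wholly in the coding part of exon 8 (chr15:100583311-100583431). The second is the stretch of coding exon 11 under the peak of highest fold enrichment of either mCherry-controlled list (chr15:100578358-100578558). Its later part codes for part of the homeodomain, and the forward qPCR primer of the study is in capitals. The last is the sequence just upstream of the annotated 5′ end (chr15:100599985-100600184), which an IgG-controlled peak of each replicate overlapped, with the letters TTTGCAT in capitals.
*Pou6f1* exon 8, RNA probe: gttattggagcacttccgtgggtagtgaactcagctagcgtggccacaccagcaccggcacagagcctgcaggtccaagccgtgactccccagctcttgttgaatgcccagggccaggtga
*Pou6f1* exon 11, peak summit: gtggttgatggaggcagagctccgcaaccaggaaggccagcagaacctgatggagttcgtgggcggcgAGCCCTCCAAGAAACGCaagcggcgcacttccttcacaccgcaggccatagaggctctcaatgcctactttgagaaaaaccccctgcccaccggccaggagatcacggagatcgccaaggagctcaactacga
*Pou6f1* upstream 200 bases: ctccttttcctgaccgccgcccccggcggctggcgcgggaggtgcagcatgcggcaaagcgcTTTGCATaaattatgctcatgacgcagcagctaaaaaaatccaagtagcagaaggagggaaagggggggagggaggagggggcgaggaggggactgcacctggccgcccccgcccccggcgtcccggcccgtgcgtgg

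The library totals ran from 1690192 to 14015980 counts on genes (median 8030848), and the 3 null embryos of E2.75 were among the shallower, at 1690192, 1914128 and 7051002. A count of 0 allows up to 3 counts, which corresponded to 0.194 to 1.54 CPM (counts per 1e6, after TMM normalization) in a library. *Dis3* itself measured 0 to 21.5 CPM in the null embryos, 30.4 to 59.2 CPM in the hets and 18.1 to 147 CPM in the WT embryos. The lowest WT value, 18.1 CPM in E2.5 WT replicate 6, fell within the null range, and the main differences from WT are also given without it. Reads that the counting assigned to no gene can include reads within annotated genes that reach outside their exons. They made up 32.3% to 43.9% of the null libraries (median 39.5%) and 21.2% to 27.9% of the het (median 25.95%). In the WT libraries their share was 20.99% to 33.4% (median 24.3%), and every null lay above every het in this share. The part of this share in the null differences below was not tested. All 10 markers of pre-implantation embryos fixed for the check were measured, with a summed level of 5832 to 21990 CPM over all embryos. Markers of cumulus cells (9 genes) summed to 0 to 18.9 CPM in null, 0 to 2.71 CPM in het and 0 to 0.825 CPM in WT embryos. In the same order, those of oviduct epithelium (3 genes) summed to 0 to 12.2, 0 to 5.04 and 0 to 7.19 CPM. Those of blood and B cells (6 genes) summed to 0 to 5.13, 0 to 3.62 and 0 to 8.66 CPM, and those of neurons (5 genes) to 0 to 14.8, 1.55 to 11.5 and 0 to 12.3 CPM. Cumulus genes at 0 in every embryo of the genotype numbered 4 of 9 in null, 8 of 9 in het and 5 of 9 in WT embryos. The part of these cells in the results below was not tested. In whole embryos, fewer cells that express a gene and less RNA per cell cannot be told apart.

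*Pou6f1* was the member with the most transcript per length, and its level was higher on average in null than in het embryos, but with the spread between embryos the difference did not pass the test. In the 4 null embryos of E2.5 it measured 65.9, 21.6, 29.0 and 60.2 CPM, and in the 3 of E2.75 78.4, 24.6 and 17.7 CPM. The 2 hets of E2.5 were at 7.99 and 16.3 CPM, and the 5 of E2.75 at 15.8, 19.3, 34.9, 8.16 and 11.7 CPM. All 7 null embryos lay above the median of the hets, and 3 of 7 lay above the highest het, which was E2.75 het replicate 3. The 6 WT embryos of E2.5 ran from 3.34 to 28.5 CPM with a median of 7.40 CPM, and the 3 of E2.75 were at 23.2, 31.6 and 55.2 CPM. The WT embryos of E2.5 were therefore low, apart from replicate 3 at 28.5 CPM, while those of E2.75 overlapped the null range. An antisense gene inside *Pou6f1*, Gm27209, shares 0 exon bases with it and stayed at 0 to 2.49 CPM. By genotype the *Pou6f1* means were 42.5 ± 24.8 CPM in null (SD, n = 7), 16.3 ± 9.24 CPM in het (n = 7) and 19.4 ± 17.1 CPM in WT embryos (n = 9).

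With the stages combined, *Pou6f1* differed between null and het embryos by a log2 fold change of 1.38 (SE 0.54, 95% interval 0.26 to 2.49, a 2.60-fold higher level), with an adjusted p of 0.169 in edgeR's quasi-likelihood test. A gene was called where the adjusted p was under 0.1 and the log2 fold change beyond 1 in size. By this rule 5.73% of the 13415 genes tested were called between null and het, and 0 of the 4 members were, although 2 of them, *Pou6f1* and *Pou2f2*, had an unadjusted p under 0.05, and DESeq2 called these 2. For *Pou6f1* the call changed with the model: the adjusted p was 0.0934 with DESeq2, 0.0706 with stage as a covariate and 0.0841 with null and het embryos alone, at log2 fold changes of 1.39, 1.72 and 1.35. Scaling by the ERCC spike-ins in place of the gene counts gave 0.24, where the median of all genes moved by -1.08. Against WT embryos the *Pou6f1* difference was 1.13 (SE 0.50, 95% interval 0.10 to 2.16, adjusted p = 0.266), with 5.25% of genes called and 0 of 4 members, 1 of them with an unadjusted p under 0.05 and 0 called by DESeq2. It was 1.07 without E2.5 WT replicate 6, whose removal left 0 members called by edgeR in any comparison of genotypes, and was called, at 1.52 (adjusted p = 0.0938), without E2.75 WT replicate 3. Between het and WT embryos it was -0.24 (SE 0.51, adjusted p = 0.941). In that comparison edgeR called 0% of genes, with 934 genes at an unadjusted p under 0.05 and 65 called by DESeq2, and 0 members in any of these counts.

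**Figure D1:**
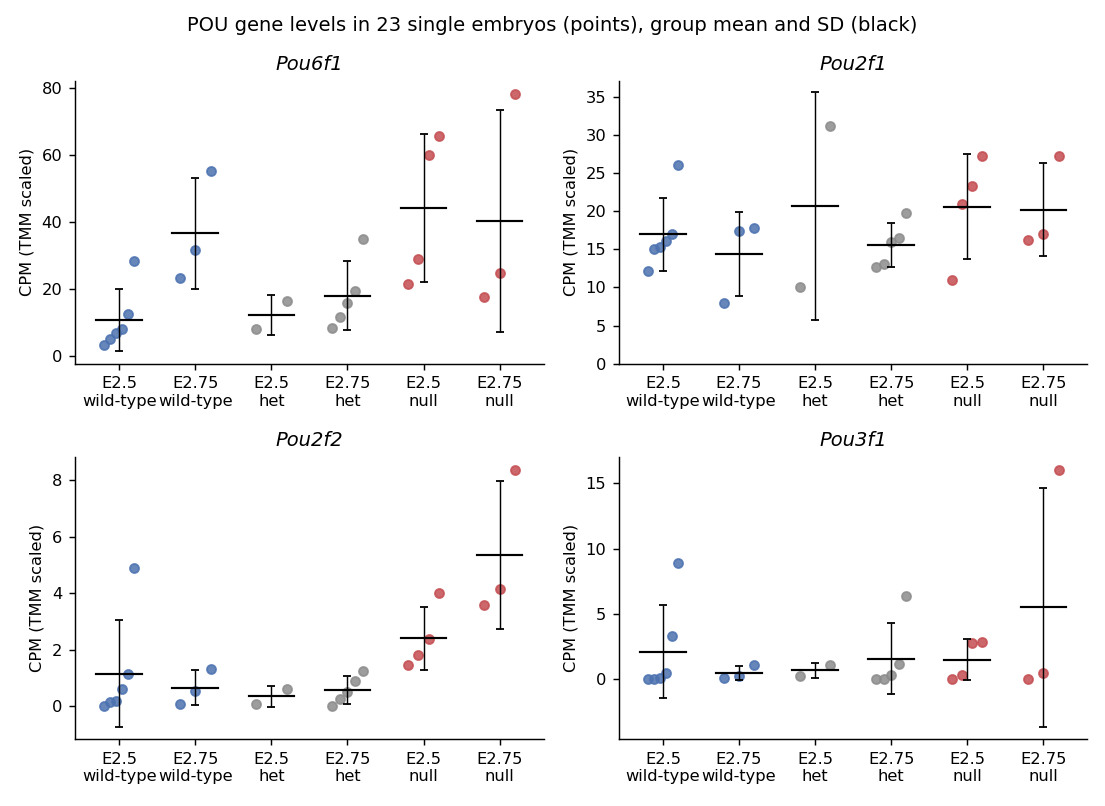
Level of the 4 POU genes in each of the 23 embryos, with CPM after TMM normalization on the vertical axes and the stage and genotype groups along the horizontal axes, 1 point per embryo, and the group mean and SD in black. *Pou6f1* lies at 17.7 to 78.4 CPM in the null embryos and at 7.99 to 34.9 CPM in the hets, and *Pou2f2* is above every het in every null embryo.

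*Pou6f1* rose with stage in WT embryos. From E2.5 to E2.75 its mean in WT embryos went from 10.7 ± 9.24 CPM (SD, n = 6) to 36.7 ± 16.6 CPM (n = 3), a log2 fold change of 1.79 (SE 0.61, 95% interval 0.54 to 3.03, 3.45-fold, adjusted p = 0.0875 in edgeR), and it was the 1 member called among 7.38% of the 18677 genes tested. The call was lost in 7 of 23 fits that each left out 1 embryo, namely without any of the 3 WT embryos of E2.75 or without replicate 1, 2, 4 or 5 of the WT embryos of E2.5, with adjusted p from 0.0221 to 0.341 over all of them. Without E2.5 WT replicate 6, whose *Dis3* was low, it was kept at 1.84 (adjusted p = 0.0962). In null embryos the mean was 44.2 ± 22.1 CPM at E2.5 (n = 4) and 40.2 ± 33.2 CPM at the later stage (n = 3), a log2 fold change of -0.17 (SE 0.68, adjusted p = 0.970 in edgeR), with 3% of genes called and 0 of 4 members, 0 at an unadjusted p under 0.05 and 0 by DESeq2. In hets the means were 12.2 ± 5.90 CPM (n = 2) and 18.0 ± 10.4 CPM (n = 5), a difference that was not tested. Null and WT stage changes differed by -1.95 (SE 0.93, 95% interval -3.87 to -0.04, unadjusted p = 0.0458, adjusted p = 0.449). For that difference edgeR called 0% of genes and 0 members, with 2046 genes and 1 member at an unadjusted p under 0.05, and DESeq2 called 344 genes and 0 members.

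Within a stage, *Pou6f1* was farthest from WT at E2.5. There null exceeded WT by 2.01 (SE 0.61, 95% interval 0.71 to 3.32, adjusted p = 0.140 in edgeR), where 1.82% of 15904 genes and 0 of 4 members were called, 1 with an unadjusted p under 0.05 and 1, *Pou6f1*, called by DESeq2 (adjusted p = 0.0150). Without E2.5 WT replicate 6 the value was 2.07 (adjusted p = 0.173). Without E2.5 WT replicate 3, the highest of its group, edgeR also called it, at 2.58 (adjusted p = 0.0796). At E2.75 the null and WT means of *Pou6f1* were 40.2 and 36.7 CPM, and the log2 fold change was 0.09 (SE 0.63, adjusted p = 0.965), with 4.54% of 14442 genes and 0 of the 3 members tested called, 0 at an unadjusted p under 0.05 and 1, *Pou2f2*, by DESeq2. Null exceeded het by 1.80 at E2.5 (SE 0.90, adjusted p = 0.544), where 2 hets entered and 0.0126% of genes were called, with 0 members called, 0 at an unadjusted p under 0.05 and 0 by DESeq2. At E2.75 the excess over het was 1.14 (SE 0.56, adjusted p = 0.318), with 4.82% of genes and 0 of 3 members called, 1 at an unadjusted p under 0.05 and 1, again *Pou2f2*, by DESeq2. That last value of *Pou6f1* fell to 0.16 without E2.75 null replicate 1, the embryo at 78.4 CPM.

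*Pou2f2* was low in all embryos, and yet its CPM after TMM normalization was higher in each null embryo than in each het. The null embryos of E2.5 measured 1.46, 2.38, 1.83 and 4.00 CPM, from 14, 14, 6 and 17 counts, and those of E2.75 8.38, 3.59 and 4.15 CPM, from 17, 7 and 30 counts. The hets of E2.5 were at 0.614 and 0.0928 CPM, and those of E2.75 at 0.259, 0.904, 1.24, 0 and 0.528 CPM, with at most 15 counts. In CPM the 2 genotypes did not overlap, and 2.2% of the genes tested had every null above every het in the same way. Relative to the ERCC spike-ins they did overlap. E2.5 null replicate 1 had 14 counts beside 664286 ERCC counts, and E2.75 het replicate 3 had 15 beside 340307. The WT embryos ran from 0 to 4.90 CPM with a median of 0.557 CPM, and E2.5 WT replicate 1, at 4.90 CPM from 60 counts, reached into the null range, above all but 1 null embryo. The means were 3.68 ± 2.33 CPM in null (SD, n = 7), 0.520 ± 0.448 CPM in het (n = 7) and 0.998 ± 1.54 CPM in WT embryos (n = 9).

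The fitted difference of *Pou2f2* between null and het was 2.79 (SE 1.03, 95% interval 0.67 to 4.90, 6.90-fold), and with an adjusted p of 0.138 in edgeR it was not called, while DESeq2 gave 2.85 and called it (adjusted p = 0.0170). Without E2.5 WT replicate 1, which shares the fit, edgeR called it too (adjusted p = 0.0968). Against WT it was 1.85 (SE 0.91, adjusted p = 0.340 in edgeR), 1.71 without E2.5 WT replicate 6, and 2.84 and called (adjusted p = 0.0827) without E2.5 WT replicate 1. Het and WT embryos differed by -0.94 (SE 0.93, adjusted p = 0.852). At E2.75 alone null exceeded het by 3.15 (SE 1.29, adjusted p = 0.223) and WT by 3.01 (SE 1.55, adjusted p = 0.322), values that DESeq2 called at 3.27 and 3.15 (adjusted p = 0.0273 and 0.0679). The levels of *Pou2f2* and *Pou6f1* were lower in deeper libraries, with Pearson correlations to log2 library count of -0.45 and -0.40 (rho = -0.347 and -0.411) over the 23 embryos, and the part of depth in their differences was not tested.

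A gene without shared exons lies inside *Pou2f2* (ENSMUSG00000008496, chr7:25087344-25179726, minus strand). It is the long non-coding RNA D930028M14Rik, on the plus strand at chr7:25152457-25156627 within an intron, and its mean level was highest in null embryos too. Its level in the null embryos of E2.5 was 24.0, 19.03, 18.0 and 51.7 CPM and in those of E2.75 5.42, 16.4 and 16.6 CPM, a mean of 21.6 ± 14.4 CPM (SD, n = 7), against 3.42 ± 4.41 CPM in het (n = 7) and 6.45 ± 6.85 CPM in WT embryos (n = 9). The null and het difference was 2.66 (SE 0.92, adjusted p = 0.106 in edgeR) and was not called. Over the 23 embryos its log2 level correlated with that of *Pou2f2* at r = 0.475 (rho = 0.468). The counting ignored strand, so unspliced reads of *Pou2f2* in this intron and reads of the antisense RNA cannot be told apart there.

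*Pou2f1* varied least, with a coefficient of variation of 0.335 over the 23 embryos, against 0.816 for *Pou6f1*, 1.24 for *Pou2f2* and 1.89 for *Pou3f1*. Its 7 null embryos were at 23.3, 27.2, 10.99 and 20.9 CPM (E2.5) and 16.3, 27.2 and 17.03 CPM (E2.75), the hets ran from 10.1 to 31.2 CPM with a median of 15.9 CPM, and the WT embryos from 8.01 to 26.1 CPM with a median of 16.1 CPM. The 3 genotypes overlapped across nearly their whole ranges, with means of 20.4 ± 6.02 CPM in null (SD, n = 7), 17.03 ± 6.98 CPM in het (n = 7) and 16.1 ± 4.84 CPM in WT embryos (n = 9). The null and het difference was 0.26 (SE 0.36, 95% interval -0.48 to 1.00, adjusted p = 0.772 in edgeR), the null and WT difference 0.34 (adjusted p = 0.739; 0.30 without E2.5 WT replicate 6) and the het and WT difference 0.08 (adjusted p = 0.979). Its interval thus bounded the null and het difference to below 2-fold in either direction under gene-count scaling, while ERCC scaling turned the sign, to -0.86. By stage *Pou2f1* differed by -0.24 in WT and -0.06 in null embryos. *Cd247*, a T cell receptor gene on the opposite strand, shares 3007 exon bases with *Pou2f1* and was at 0 in 21 of 23 embryos. The pseudogene Gm17976, in a *Pou2f1* intron, reached at most 3.23 CPM. Mir6537 in *Pou2f2* and Gm2164, which overlaps the first 363 bases of *Pou3f1*, were at 0 throughout. The counting ignored strand, so reads lying wholly on shared exon bases were ambiguous and counted for neither gene. Gm2164 shares 330 of its 424 exon bases with *Pou3f1*, and *Cd247* 3007 of 5329 with *Pou2f1*, so a 0 does not show these genes to be silent.

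*Pou3f1* was near the limit of detection in most embryos, with single embryos far above the rest. It had at least 1 count in 17 of 23 embryos and more than 3 counts in 11. The null embryos measured 0, 2.89, 0.305 and 2.82 CPM (E2.5) and 0, 0.513 and 16.1 CPM (E2.75), the hets ran from 0 to 6.39 CPM (median 0.324) and the WT embryos from 0 to 8.90 CPM (median 0.266). A null embryo (E2.75 replicate 3), a het (E2.75 replicate 3, 6.39 CPM) and a WT embryo (E2.5 replicate 4, 8.90 CPM) each held the highest level of their genotype, and the ranges overlapped from 0 upwards. The null and het difference was 1.28 (SE 1.40, 95% interval -1.59 to 4.15, adjusted p = 0.700 in edgeR), and it turned to -0.27 without E2.75 null replicate 3. The null and WT difference of 1.03 (adjusted p = 0.801) turned to -0.52 without the same embryo and was 0.86 without E2.5 WT replicate 6. The interval covers a large rise as well as a fall. At E2.75 alone the gene did not pass the filter on low counts.

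**Figure D2:**
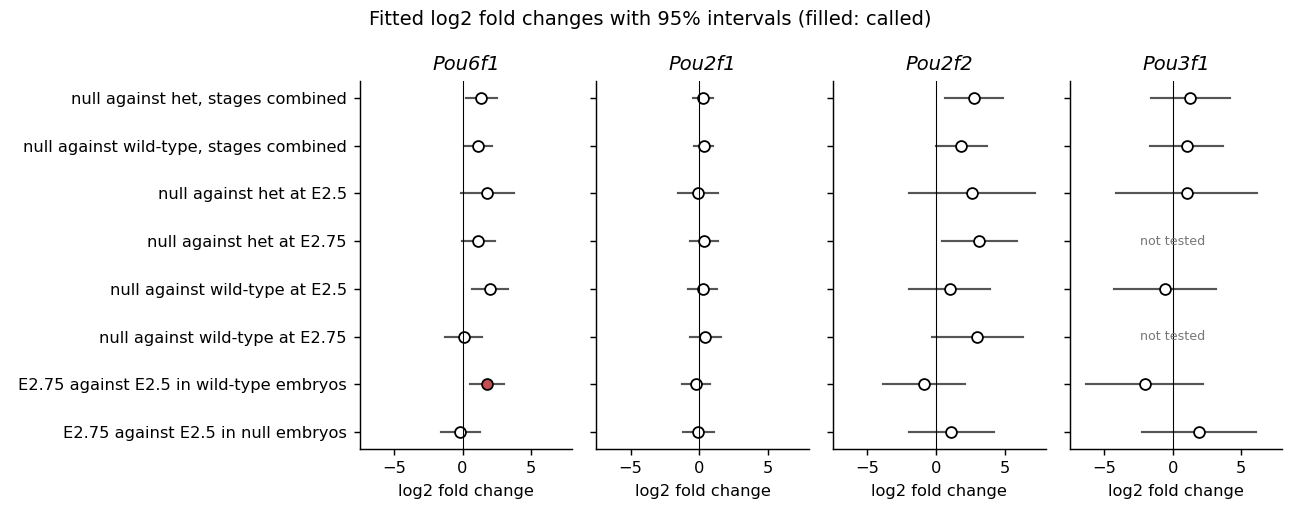
Log2 fold changes of the 4 POU genes in the genotype and stage comparisons, as points with 95% intervals from edgeR on the horizontal axes, where 0 means no difference and a filled point was called. *Pou6f1* from E2.5 to E2.75 in WT embryos (1.79) is the comparison that was called, and the intervals of *Pou3f1* are the widest. *Pou2f1* stays near 0, with intervals that are narrow with the stages combined and wider within a stage (-1.51 to 1.35 for null against het at E2.5).

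Per length of exon, *Pou6f1* stood at 3.67 ± 2.99 CPM per kb over the 23 embryos, *Pou2f1* at 1.07 ± 0.36, *Pou3f1* at 0.522 ± 0.987 and *Pou2f2* at 0.203, so the spread of *Pou6f1* and *Pou2f1* overlapped, as did that of *Pou3f1* with each of the others. Of the 16 POU family genes listed, 8 passed the filter when the stages were combined, and 0 were called between null and het in edgeR, with 2 at an unadjusted p under 0.05 and 2, *Pou6f1* and *Pou2f2*, called by DESeq2. Their median log2 fold change was 0.07, against 0.02 for all genes, and 4 of 8 were positive. Beside the 4 members these were *Pou5f1* (-0.12, adjusted p = 0.870), *Pou2f3* (-1.08), *Pou4f1* (-0.23) and the divergent family gene *Hdx* (-1.56).

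Of 15 partners of POU factors, 14 were tested between null and het, and 2 rose and 0 fell, beside 5.73% of all genes called, with 5 partners at an unadjusted p under 0.05. *Snapc3*, a subunit of the complex that OCT1 helps to place on small nuclear RNA promoters, rose by 1.73 (SE 0.42, adjusted p = 0.0159 in edgeR), and *Sox15*, a SOX factor that can pair with POU proteins on DNA, by 1.59 (SE 0.30, adjusted p = 0.00212). DESeq2 called 4 of 15, with *Snapc5*, of the same complex, and *Nfya*, a subunit of the CCAAT-binding factor NF-Y (1.11 and -1.46 in edgeR), beside these. Against WT 0 of 14 were called by edgeR, with 3 at an unadjusted p under 0.05 and 1, *Nfya*, by DESeq2, and *Snapc3* and *Sox15* stood at 0.94 and 0.71. Between het and WT these 2 were at -0.79 and -0.88 (adjusted p = 0.705 and 0.537 in edgeR). Between null and het at E2.5 alone neither was called (1.78 and 1.26), and at E2.75 *Snapc3* was not (0.78). The median of the 14 was -0.07 between null and het. At E2.75 alone edgeR called 2 partners between null and het, beside 4.82% of genes. These were *Nfyb*, another subunit of NF-Y (1.24, adjusted p = 0.0261), and *Sox15* (1.38, adjusted p = 0.00913). Between null and WT at E2.75 it called 1, *Nfyb* (1.41, adjusted p = 0.0366), beside 4.54% of genes. *Pou2af1*, the B cell coactivator of OCT1 and OCT2, was not tested because of low counts. Of 4 genes that the study examined as possible POU6F1 targets in embryos or mESCs, *Nanog* was at -1.37 (adjusted p = 0.176), *Cdx2* at -2.63 (adjusted p = 0.141), *Pou5f1* at -0.12 and *Sox2* at 0.09 between null and het, and 0 of 4 were called by edgeR, with 2 at an unadjusted p under 0.05 and 1, *Cdx2*, called by DESeq2. Between null and WT *Nanog* was at -0.46 (adjusted p = 0.769 in edgeR) and *Cdx2* at -0.78 (adjusted p = 0.779). Within the stages *Nanog* and *Cdx2* were at -1.11 and -2.38 at E2.5 (adjusted p = 0.471 and 0.423 in edgeR), and both at -0.02 at E2.75. Between het and WT, with the stages combined, they were at 0.90 and 1.85. The list was taken from the study and is not independent evidence of its direction.

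Genes whose log2 level followed a member most closely over the 23 embryos were ranked among 13414 genes, as a description, since these embryos share stage, genotype and depth. For *Pou2f2* the 3 nearest were D730005E14Rik (r = 0.871, rho = 0.850), Gm10801 (r = 0.859, rho = 0.904) and Gm12594 (r = 0.847, rho = 0.834), unnamed transcripts that were themselves called higher in null than in het embryos, by 4.07, 1.63 and 1.97 on the log2 scale. For *Pou6f1* they were *Arhgef33* (r = 0.742), *Bora* (r = 0.734), a mitotic kinase cofactor that lies 665 bases from *Dis3*, and *Pkd1* (r = 0.726), and *Bora* itself was not called (0.43). *Pou2f1* was followed by Gm43660 (r = 0.740), *Togaram1* (r = 0.707) and Gm49223 (r = 0.692). *Pou3f1* had the weakest neighbors, *Nutf2* (r = 0.650), *Zc3h12a* (r = 0.640) and Gm40538 (r = 0.630). Among the members, *Pou2f1* and *Pou2f2* were correlated at 0.53, *Pou6f1* and *Pou2f2* at 0.44, and *Pou6f1* and *Pou2f1* at -0.07.

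POU6F1-mCherry peaks lay within 5 kb of all 4 members against IgG. The 4 lists held 82694 peaks (replicate 1, IgG), 31348 (replicate 1, mCherry), 24524 (replicate 2, IgG) and 3630 (replicate 2, mCherry), and 75.5%, 67.2%, 59.8% and 19.2% of 21938 protein-coding genes had at least 1 peak within 5 kb. *Pou6f1* had 14, 12, 8 and 10 such peaks, *Pou2f1* 2, 3, 3 and 2, *Pou2f2* 34, 10, 7 and 0, and *Pou3f1* 6, 3, 2 and 0. Peaks of both replicates that overlapped by at least 1 base were present at 4 of 4 members against IgG, where 55.5% of protein-coding genes had one, and at 2 of 4 against mCherry (*Pou6f1* and *Pou2f1*), where 18.8% had one. Without the peaks on the coding exons of *Pou6f1*, which are taken up below, the latter count was 1 of 4. With a fold enrichment and a -log10 q of at least 5 in both replicates, *Pou6f1* lost its shared IgG peaks and 3 of 4 members remained, against 38.4% of genes.

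In the mCherry-controlled lists *Pou6f1* carried its strongest peaks on its coding exons, while in the IgG-controlled lists its highest peak was the one at the 5′ end. Each of the 10 coding exons of its reference transcript of 11 exons, exons 2 to 11, had 1 peak in both mCherry-controlled lists, with fold enrichments of 17.8 to 103 (median 33.0) in replicate 1 and 8.09 to 51.0 (median 13.6) in replicate 2. The peak on exon 11, the sequence shown above with the qPCR primer, had a fold enrichment of 102.9 in replicate 1 and 51.0 in replicate 2, and ranked 1 in either list, among 31348 and 3630 peaks. Exon 8, which holds the RNA probe, was at 33.3 and 15.5. Against IgG the same exons measured 3.45 to 5.37 (median 3.57) in replicate 1, and 7 of 10 had a peak in replicate 2, at 1.32 to 1.98 (median 1.49). The IgG values were below the median fold enrichment of their lists, 5.61 and 4.84, while exon 11 in the mCherry lists was the maximum.

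The transfected plasmid encoded POU6F1 fused to mCherry, and its insert is taken here to be the *Pou6f1* cDNA between the cloning primers listed for a *Pou6f1* expression plasmid, of which 330 of 1783 bases could be read and matched the transcript. Those primers marked transcript bases 213 to 1995 of 4953, which span the 1728 coding bases and 55 bases before them. All exon peaks had their summits inside these bases, 10, 10, 7 and 10 in the 4 lists, and outside them the gene and its 5 kb flanks held 4, 2, 1 and 0 peaks. Peaks of the mCherry-controlled list that overlapped an IgG-controlled peak had a median ratio of the 2 fold enrichments of 0.675 in replicate 1 (30806 peaks) and 0.549 in replicate 2 (3568 peaks). On the *Pou6f1* exons this ratio was 5.13 to 19.2 in replicate 1 and 6.39 to 25.8 in replicate 2 (7 exons), and 0 other such overlapping peaks reached the lowest of these values. Counted by coding blocks with a peak, 0 other genes had as many as *Pou6f1* in the replicate 2 mCherry list, where *Crlf2* came next with 4 of 8, and 6, 324 and 8 others did in the lists of replicate 1 against mCherry, replicate 1 against IgG and replicate 2 against IgG. Cells with mCherry alone lacked this plasmid and the IgG sample came from cells that held it, so, with such an insert, reads of the transfected cDNA and of the exons of the *Pou6f1* gene cannot be told apart in these lists.

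**Figure D3:**
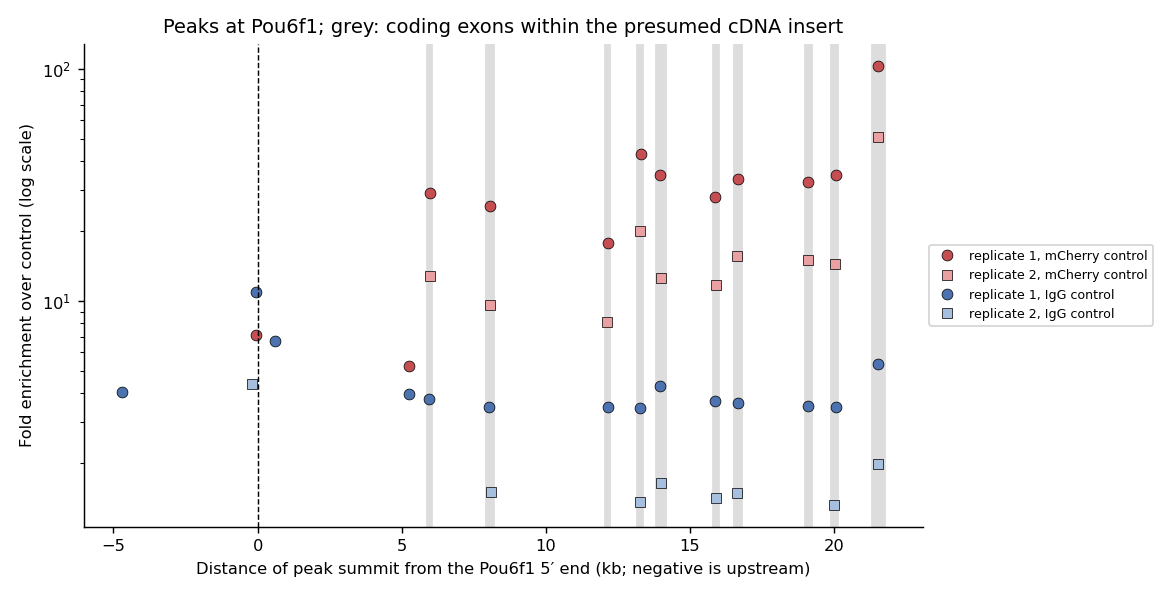
Peaks along *Pou6f1* in the 4 lists, drawn by distance from the annotated 5′ end, with fold enrichment over the control on a log-scaled vertical axis and the coding exons within the presumed insert as grey bands. The 10 exon peaks reach 103-fold and 51.0-fold with the mCherry control and at most 5.37-fold with the IgG control, while the peak at the 5′ end is 10.9-fold at most.

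At the 5′ end of *Pou6f1*, outside these bases, replicate 1 had a peak against IgG at chr15:100599604-100600306 with its summit 40 bases upstream (fold enrichment 10.9, within the top 10.4% of its list) and a peak against mCherry at chr15:100599715-100600247 with the same summit (7.15, top 27.3%). Replicate 2 had a peak against IgG at chr15:100600029-100600302, with its summit 198 bases upstream (4.37, top 65.1%), and none against mCherry. A peak over the *Pou6f1* promoter was thus listed in 3 of the 4 lists. In the 200 bases shown above, the 3 motifs searched on both strands (ATGCAAAT, TAATTA and TAATGAG) were not present. The capitals TTTGCAT are the reverse complement of ATGCAAA, 7 letters of the octamer, which was searched after the sequence was read and occurred in 4.63% of 32851 RefSeq promoters of 300 bases and in 1.77% of the peak windows of replicate 1 against IgG.

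*Pou2f1* (ENSMUSG00000026565, chr1:165865154-166002678, minus strand) had the strongest promoter peak of the 4 genes, and it recurred in all 4 lists. In replicate 1 it had a fold enrichment of 38.0 against IgG (chr1:166001410-166003639, summit 676 bases upstream, rank 305 of 82694) and 21.5 against mCherry (chr1:166002571-166003627, summit 684 bases upstream, rank 450 of 31348). Replicate 2 resolved the region into 2 peaks, with summits 146 and 740 bases upstream and fold enrichments of 15.3 and 13.1 against IgG (ranks 187 and 461 of 24524), and 6.36 and 4.26 against mCherry (ranks 649 and 2515 of 3630). The non-coding gene Gm26665 starts on the plus strand in the same stretch, at base 166002960, so the peaks can be assigned to either gene. TAATTA, the core of many homeodomain sites, was not in the window of 100 bases to each side of the highest summit (38.0-fold). It stood in that of the second replicate 2 summit, while 0.836% of all windows of the replicate 2 IgG list and 0.716% of its mCherry list held it. A weaker intronic peak of replicate 1 against mCherry (4.90-fold) also had it in its window, as did 0.794% of the windows of that list. The replicate 2 window is shown on the minus strand (chr1:166003318-166003518) with TAATTA in capitals.
*Pou2f1* upstream peak: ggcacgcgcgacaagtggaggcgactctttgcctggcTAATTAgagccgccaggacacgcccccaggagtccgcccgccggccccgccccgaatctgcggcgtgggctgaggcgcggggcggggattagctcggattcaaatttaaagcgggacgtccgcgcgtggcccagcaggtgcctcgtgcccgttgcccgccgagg

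*Pou2f2* had many weak peaks in replicate 1 and few elsewhere. Of its 34 peaks against IgG in replicate 1, 24 had their summit in an intron, and the highest, at 16.9-fold (chr7:25105874-25106109), was also present against mCherry (8.52) and in replicate 2 against IgG (5.68). At the 5′ end, a replicate 1 IgG peak overlapped the start site (chr7:25179633-25180038, fold enrichment 11.3, summit 175 bases upstream). Weaker peaks lay within its bounds in replicate 1 against mCherry (5.35, summit 171 bases upstream) and in replicate 2 against IgG (4.71, summit 72 bases upstream). Inside the gene, a peak at chr7:25133042-25133556 (replicate 1, IgG) lay upstream of a start site of coding transcripts. Its fold enrichment was 11.9 in that list, 5.39 in replicate 1 against mCherry and 3.29 in replicate 2 against IgG. The highest replicate 2 peak of *Pou2f2* was intronic (6.29, chr7:25163785-25163962). The mCherry-controlled list of replicate 2 had 0 peaks within 5 kb. The intronic window with the highest value is shown on the minus strand (chr7:25105888-25106088), and none of the 3 motifs was in it. Of 34 windows in replicate 1 against IgG, 1 held both TAATTA and TAATGAG (chr7:25134594-25134794, fold enrichment 4.67), letters found in 0.842% and 1.02% of all windows of that list.
*Pou2f2* intronic peak: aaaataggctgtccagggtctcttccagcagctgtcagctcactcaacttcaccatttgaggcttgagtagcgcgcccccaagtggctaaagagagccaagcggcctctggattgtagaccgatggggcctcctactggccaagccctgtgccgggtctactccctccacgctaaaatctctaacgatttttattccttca

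*Pou3f1* (ENSMUSG00000090125, chr4:124656807-124660655, plus strand), a gene of 1 exon, had its highest peak inside the transcript, before the coding sequence, in the 3 lists that had any. Its fold enrichment was 13.5 in replicate 1 against IgG (chr4:124656978-124657732), 7.34 against mCherry and 7.12 in replicate 2 against IgG. A further replicate 1 IgG peak overlapped the start site (chr4:124656609-124656924, fold enrichment 6.23). The octamer, TAATTA and TAATGAG were in 0 of its 6, 3 and 2 summit windows. ATGCAAAT was in 0 of the summit windows of the 4 genes in any list, and it occurred in 0.474% to 1.16% of all windows of the lists, and in 1.74% of RefSeq promoters.

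**Figure D4:**
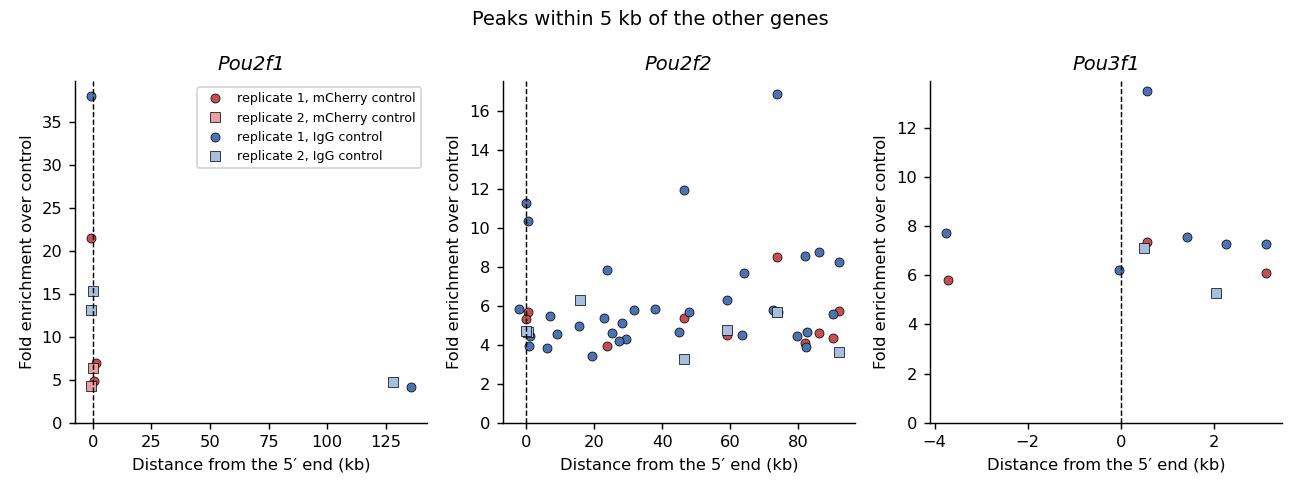
Peaks within 5 kb of *Pou2f1*, *Pou2f2* and *Pou3f1* in the 4 lists, by distance from the annotated 5′ end, in kb on the horizontal axes, with fold enrichment over the control on the vertical axes. The *Pou2f1* upstream peak reaches 38.0-fold and appears in all 4 lists, and *Pou2f2* and *Pou3f1* have none in the mCherry-controlled list of replicate 2.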

How the data were processed

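RNA was measured in 23 single embryos and POU6F1-mCherry binding in transfected mESCs. Per the labels and the study's methods, the authors used cutadapt 3.4 for trimming and STAR 2.7.8a for alignment (GRCm38), and deposited whole-number counts per gene from HTSeq 0.11.4, counted without strand, with ERCC spike-ins. Library preparation from poly(A) RNA with template switching and PCR carries no molecular identifiers, so limits from counts cover counting error only. For binding, the authors aligned reads with Bowtie2 2.4.4 and called peaks per replicate with MACS2 2.2.7.1. The deposited peak lists hold a score, a fold enrichment over control (a ratio) and -log10 of the p and q values, and their read depth is unknown.

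Genotype, stage and replicate came from the labels. Reads assigned to no gene were 21.0% to 43.9% of a library, ambiguous reads 1.89% to 2.73%, and both stayed out of library sizes. The 38 pairs of libraries of the same group differed by more than sampling noise (chi-square per gene 23.4 to 184), and each embryo was 1 replicate. Counts were tested with edgeR 4.0.16 (TMM, filterByExpr, quasi-likelihood test, Benjamini-Hochberg over all genes tested) in R 4.3.3, and a call needed a log2 fold change beyond 1 in size with adjusted p under 0.1. The stages were merged by genotype in a fit of all embryos, fitted apart with the embryos of 1 stage, and compared in a fit of 6 groups. DESeq2 1.42.0, ERCC scaling, no filter, stage as a covariate, the replicate number as a block, null and het embryos alone, and leaving out each embryo were the alternatives. The fits were tested on simulated data. Correlations used log2 CPM with a prior count of 2.

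Peaks within 5000 bp of a gene in GENCODE vM21 were counted. Motifs were searched in 100 bases to each side of a summit. Promoters came from RefSeq, whose table matched 3 of the 4 genes. Of 40 member transcripts, 40 were identical to the GRCm38 genome sequence. The members, gene lists and motifs were chosen with earlier results of these data known. All members are named. Other listed genes are named where called between genotypes with the stages combined, or where a result is given. Not every listed gene called within a stage or between stages is named. Genes overlapping a member always are, as are the 3 genes most correlated with each member. Input samples were not analysed here.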

Additional observations from a re-analysis of the deposited data

Results flagged for a closer look

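In several groups of embryos 1 sample stood apart from the rest. The measure was the distance to its nearest neighbor relative to the range of the group (Dixon's ratio at the 95% level). For normally distributed values chance gives this in about 1 in 20 groups, but CPM from low counts need not follow that rate. For the 4 POU genes 10 of 24 groups had such an embryo, always the highest of its group, and the groups by genotype and by stage share embryos. *Pou6f1* stood apart in E2.75 het replicate 3 among the hets (34.9 CPM, next 19.3 CPM) and in E2.5 WT replicate 3 among the WT embryos of E2.5 (28.5 CPM, next 12.4 CPM). *Pou2f1* did so in E2.5 WT replicate 1 among the same 6 embryos (26.1 CPM, next 16.99 CPM). *Pou2f2* stood apart in E2.75 null replicate 1 among the null embryos (8.38 CPM, next 4.15 CPM) and in E2.5 WT replicate 1 both among all WT embryos and among those of E2.5 (4.90 CPM, next 1.33 and 1.13 CPM). *Pou3f1* was highest in E2.75 null replicate 3 among the null embryos (16.1 CPM, next 2.89 CPM), in E2.5 WT replicate 4 among the WT embryos (8.90 CPM, next 3.34 CPM) and in E2.75 het replicate 3, both among all hets and among those of E2.75 (6.39 CPM, next 1.21 CPM). E2.5 WT replicate 1 therefore stood apart for both *Pou2f1* and *Pou2f2*, and E2.75 het replicate 3 for both *Pou6f1* and *Pou3f1*.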

How the results depend on the processing

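Of 187 values recomputed under other settings than leaving out an embryo, 157 were kept. For a fold change this meant the same direction and side of the threshold. For a count of members, called or with a shared peak, a small change also passed as kept, such as 4 to 3 members with the stricter IgG peaks. Between null and het embryos *Pou6f1* (1.38, not called) was called by DESeq2 at 1.39, with stage as a covariate at 1.72 and with null and het embryos alone at 1.35, and *Pou2f2* (2.79, not called) by DESeq2 at 2.85, so these settings called 2, 1 and 1 of the members instead of 0. DESeq2 also called 1 member instead of 0 for null against het at E2.75 and for null against WT at either stage. The cause was not tested. ERCC scaling shifted the median of all genes by -1.08 for null against het, -0.37 for null against WT, 0.71 for het against WT, and 0.89 and 0.97 for the stages of WT and null embryos. With it the sign turned for *Pou2f1* between null and het (-0.86; -0.29 at E2.75), between null and WT at E2.5 (-0.12) and between the stages in WT (0.70) and null embryos (1.02). It also turned for *Pou6f1* between het and WT (0.068), null and WT at E2.75 (-0.55) and the stages of null embryos (0.69), for *Pou2f2* between het and WT (0.33) and the stages of WT embryos (0.42), and for *Pou3f1* between het and WT (0.29) and null and het at E2.5 (-0.54). *Pou6f1* from E2.5 to E2.75 in WT embryos was called with it, at 2.76. Without the filter on low counts *Pou6f1* between null and WT at E2.75 was -0.011 and *Pou2f1* between the stages of null embryos 0.035, and with DESeq2 *Pou2f1* was 0.029 between null and het at E2.5 and 0.041 between the stages of null embryos.

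Of all genes, 769 were called between null and het (64.1% higher in null), against 1784 with DESeq2, 1808 without the filter, 332 with the replicate block and 4776 (6.05% higher) with ERCC scaling. Between null and WT the calls were 704 (69.7% higher), 1663 with DESeq2, 3409 without the filter and 786 (40.3% higher) with ERCC scaling. By stage, DESeq2 and ERCC scaling called 1678 and 2494 genes between null and het at E2.75 (696 as reported), 1994 and 927 between null and WT at E2.75 (656), 598 and 1955 between null and het at E2.5 (2), and 1260 and 91 between null and WT at E2.5 (289). Between the stages, ERCC scaling called 3277 genes in WT embryos (98.2% higher at E2.75, against 50.7% of 1378) and 2008 in null embryos (98.1%, against 41.2% of 561), where DESeq2 called 1380.

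Replicate numbers did not pair the embryos: over 17 pairs of the same number and stage, deviations from group means correlated from -0.106 to 0.086. With the replicate number as a block, *Pou6f1* was 1.31 and *Pou2f2* 3.09 between null and het (adjusted p = 0.413 and 0.319), and *Pou3f1* turned to -0.84. Against WT *Pou6f1* was 1.30 and *Pou2f2* 2.67 under the block.

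Leaving out 1 embryo at a time, null against het ranged from 1.10 to 1.68 for *Pou6f1*, 0.16 to 0.47 for *Pou2f1*, 2.397 to 3.18 for *Pou2f2* and -0.27 to 2.75 for *Pou3f1*, and against WT from 0.85 to 1.52, 0.25 to 0.46, 1.46 to 2.84 and -0.52 to 2.24. Het against WT ranged from -0.55 to 0.14, -0.13 to 0.20, -1.33 to 0.05 and -1.73 to 0.96. Null against WT at E2.75 ranged from -0.89 to 0.52 for *Pou6f1*, and at E2.5 from 1.74 to 2.58 for *Pou6f1* and -1.10 to 0.90 for *Pou3f1*. Null against het at E2.5 ranged from -0.71 to 1.01 for *Pou2f1*. The WT stage difference ranged from 1.37 to 2.36 for *Pou6f1*, -0.41 to 0.052 for *Pou2f1* and -1.79 to 0.60 for *Pou2f2*, and that in null embryos from -1.05 to 0.19 for *Pou6f1*, -0.32 to 0.11 for *Pou2f1* and -2.51 to 2.52 for *Pou3f1*. Its difference between genotypes ranged from -0.11 to 0.36 for *Pou2f1* and -0.46 to 5.38 for *Pou3f1*. The members called ranged from 0 to 1 in null against het, in null against WT, also at E2.5, and in the WT stage difference. Without a het of E2.5 a lone embryo is left, assumed to vary like the other groups. More than 3 counts of *Pou3f1* were held by 11 of 23 embryos.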
